A study of Caenorhabditis elegans with 10 samples.

Results

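The *vit-6*, *col-181*, *rps-7* and *zip-2* circRNA loci are 4 of the 141 back-splice junctions with deposited counts from whole *C. elegans*. Together they held between 36.6% and 69.2% of the counts at these 141 junctions in a sample. The study reports more detected circRNAs than that, so shares, ranks and percentages here are over the deposited junctions only. A circular RNA (circRNA) forms when the splicing machinery joins the 3′ end of an exon to the 5′ end of the same or an upstream exon, and RNA-seq detects it through reads that cross this back-splice junction. Each of the 4 host genes had 1 junction in the table, found through the host gene that the study's list of circRNAs gives at identical coordinates (*vit-6*, *col-181* and *rps-7*) or, for *zip-2*, as the single entry of the same chromosome that starts no more than 150 nt away and differs in span by at most 1 nt. They were selected on their raw counts, the largest in the table, with results of these data in view, so their levels and shares are given as description.

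Total RNA came from whole hermaphrodites at day 3 of adulthood, in 5 biological replicates of *nova-1* mutants and 5 of wild-type. The mutants were strain VDL1105, which carries the outcrossed deletion allele *nova-1(tm6146)*, and the wild-type was N2 Bristol, so 1 mutant strain stands for the loss of the RNA-binding protein NOVA-1. Both genotypes were synchronized by hypochlorite, fed *E. coli* OP50 and moved as L4 larvae to plates with 5-fluorodeoxyuridine (FUdR), an inhibitor of DNA synthesis that prevents progeny. Column totals were 8514 to 9437 counts in *nova-1* mutants and 7955 to 15014 counts in wild-type. Wild-type replicate 1 stood apart from its own genotype, with the total of 15014 and a mean Spearman correlation of 0.594 with the other wild-type replicates, so results that rest on it are given with and without it. No junction of *nova-1* itself was in the table, so the genotype of each library could not be checked from these counts.

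The host genes work in unlike processes. *vit-6* encodes a vitellogenin, a yolk protein precursor that the adult hermaphrodite intestine makes in large amounts and secretes for uptake by oocytes. *col-181* encodes a cuticle collagen, *rps-7* a protein of the small (40S) ribosomal subunit, and *zip-2* a bZIP transcription factor that acts in the defence response to bacterial infection and to blocked translation. Yolk proteins, collagens and ribosomal proteins come from some of the most abundant mRNAs of an adult worm, whereas transcription factor mRNAs are usually far less abundant.

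The 4 junctions also differed in how they sat on their genes. In the coordinates of the table, the *rps-7* junction joined positions 10331101 and 10331466 on chromosome I, and the *zip-2* junction joined 834297 and 835205 on chromosome III. These coordinates were offset from the WBcel235 annotation (Ensembl release 115) by an amount that varied along the genome, from -3 to 120 nt at the 120 loci whose ends both met annotated exon boundaries at a single offset of at most 150 nt and within 1 nt. An offset of 10 nt placed the *rps-7* junction on exons 2 to 3 of transcript ZC434.2.1, that is, 318 nt of exon and 48 nt of intron. The loci on either side, in *swah-1* and *daf-16*, took offsets of 8 and 11 nt. For *zip-2*, an offset of 8 nt placed the junction on exons 2 to 4 of K02F3.4.1, with 801 nt of exon and 108 nt of intron, between neighbours in *pat-12* and *par-2* at 6 and 12 nt.

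The *vit-6* and *col-181* junctions did not join annotated exon ends. The *vit-6* junction (chromosome IV, 8261566 to 8261793, a span of 228 nt) lay inside exon 2 of K07H8.6a.1, which runs from 8261359 to 8261818. An offset of 25 nt would have put its end on the 3′ boundary of that exon, and the loci before and after it took 7 and 30 nt, but its start would then still have been inside the exon. The *col-181* junction (chromosome X, 12105314 to 12105460) spanned 147 nt, the shortest span of the 141 loci. It lay inside exon 2 of W03G11.1a.1 (12105140 to 12106102), and neither of its ends came within 150 nt of an exon boundary. In all, 21 loci lacked a single offset, and they held 38.4% of all counts, against 10.7% when the 4 loci were left out of both counts and total. Only 3 loci had a span shorter than the 200-nt junction scaffold on which reads were counted, *col-181* among them. Whether span or exon position affected the counting was not tested. Nor was it tested whether the *vit-6* and *col-181* counts come from back-splicing, since neither junction joined annotated exon ends.

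Of the host genes, *vit-6* lies at 8261157 to 8266459 on chromosome IV and *col-181* at 12104930 to 12106102 on chromosome X. *rps-7* lies at 10330879 to 10331808 on chromosome I and *zip-2* at 832982 to 835814 on chromosome III. All are on the plus strand in WBcel235.

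**Figure D1:**
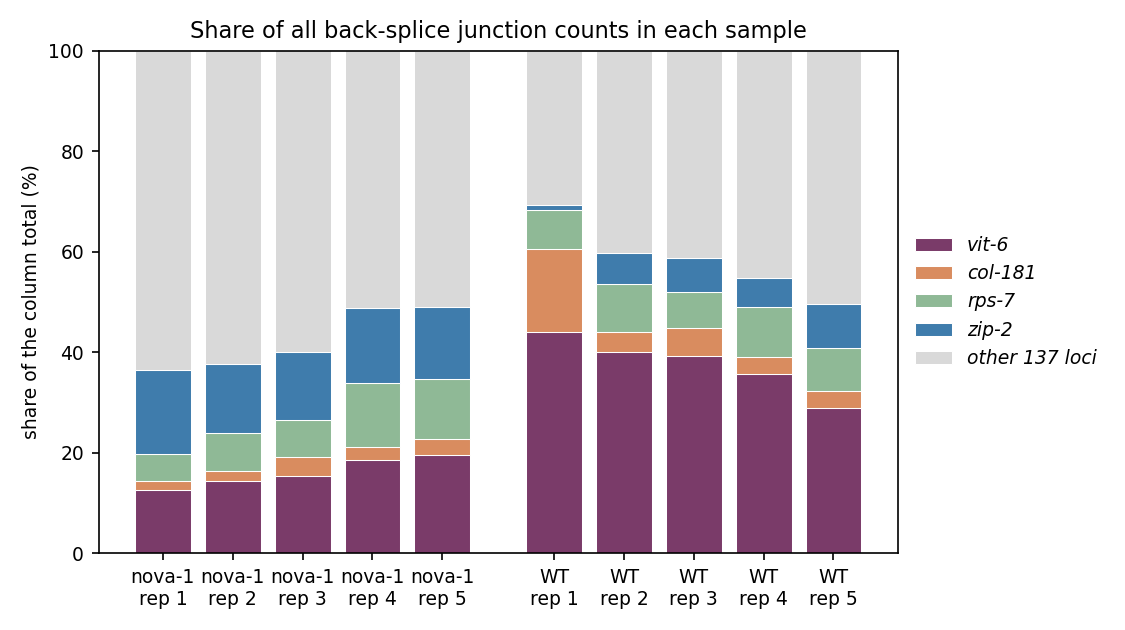
Share of the column total (percent, vertical axis) taken by the *vit-6*, *col-181*, *rps-7* and *zip-2* junctions and by the other 137 loci, 1 stacked bar per replicate (rep), *nova-1* mutants left of wild-type (WT). The *vit-6* part is 12.6% to 19.6% of each *nova-1* bar and 28.9% to 44% of each wild-type bar, while the *zip-2* part is 13.5% to 16.8% in *nova-1* mutants and 0.946% to 8.67% in wild-type.

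Together, the 4 junctions held 36.6%, 37.7%, 40%, 48.7% and 48.9% of the column total in *nova-1* replicates 1 to 5, against 69.2%, 59.7%, 58.8%, 54.9% and 49.5% in wild-type replicates 1 to 5. Every *nova-1* share was below every wild-type share, although the highest mutant value of 48.9% (95% Wilson interval 47.9% to 49.9%) and the lowest wild-type value of 49.5% (48.4% to 50.6%) had intervals that met. Wilson intervals here cover counting error only. The mean joint share was 42.4% ± 5.99 in *nova-1* mutants and 58.4% ± 7.27 in wild-type (SD, n = 5 each), or 55.7% ± 4.65 (n = 4) without wild-type replicate 1. No other locus took more than 4.57% of a *nova-1* library or 2.12% of a wild-type library. The *vit-6* junction ranked first in 9 of the 10 samples and *zip-2* in 1, *nova-1* replicate 1. *rps-7* was among the top 4 junctions of all 10 samples, and *col-181* only of the 5 wild-type samples.

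A share can move because the locus or the rest of the library moves. Relative to the sequenced reads of each library, taken from the study's read statistics, the 4 loci had 29.6 to 45.7 counts per 1000000 reads in *nova-1* mutants and 42.2 to 105 in wild-type, or 42.2 to 69.5 in wild-type without replicate 1. The other 137 loci together had 45.2 to 55.2 counts per 1000000 reads in *nova-1* mutants and 36.5 to 47 in wild-type. Both ranges overlapped between genotypes.

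Counts were normalized by TMM, which scales each library so that most loci change little, and are expressed for a library of 9421 counts, the mean effective size. Over all 10 samples the mean normalized count was 2691 for *vit-6*, 905 for *zip-2*, 849 for *rps-7* and 494 for *col-181*. These means over the 9 samples other than wild-type replicate 1 were 2331 for *vit-6*, 992 for *zip-2*, 827 for *rps-7* and 301 for *col-181*. By the mean of the *nova-1* mutants alone, *col-181* ranked only 8th in the table. The next loci below over all 10 samples were *Y22D7AR.6* with 197, a *gap-2* junction (9510460 to 9511097) with 188 and *gld-2*, a cytoplasmic poly(A) polymerase gene, with 176.

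Across genotypes, *zip-2* was higher in *nova-1* mutants, *vit-6* and *col-181* were lower, and *rps-7* had no difference larger than its spread. With a criterion of an absolute log2FC above 0.5, the threshold in the study's methods, and an unadjusted *P* under 0.05 in the edgeR quasi-likelihood test, 3 of the 4 loci were called, against 40.4% of all 141 loci. The same 3 were called at an adjusted *P* under 0.05, which 28.4% of all loci met. By direction, 1 of the 4 was called higher and 2 lower in *nova-1* mutants, against 21.3% and 19.1% of all loci. In 2 of the 4 the normalized counts of the genotypes did not overlap, as in 24.8% of all loci, and these were 1 higher and 1 lower in *nova-1* mutants, against 14.9% and 9.93% of all loci. Since the loci were picked with these results known, nothing is read from these counts. The place of *col-181* among the 4 came through wild-type, which itself favours a lower mutant level.

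**Figure D2:**
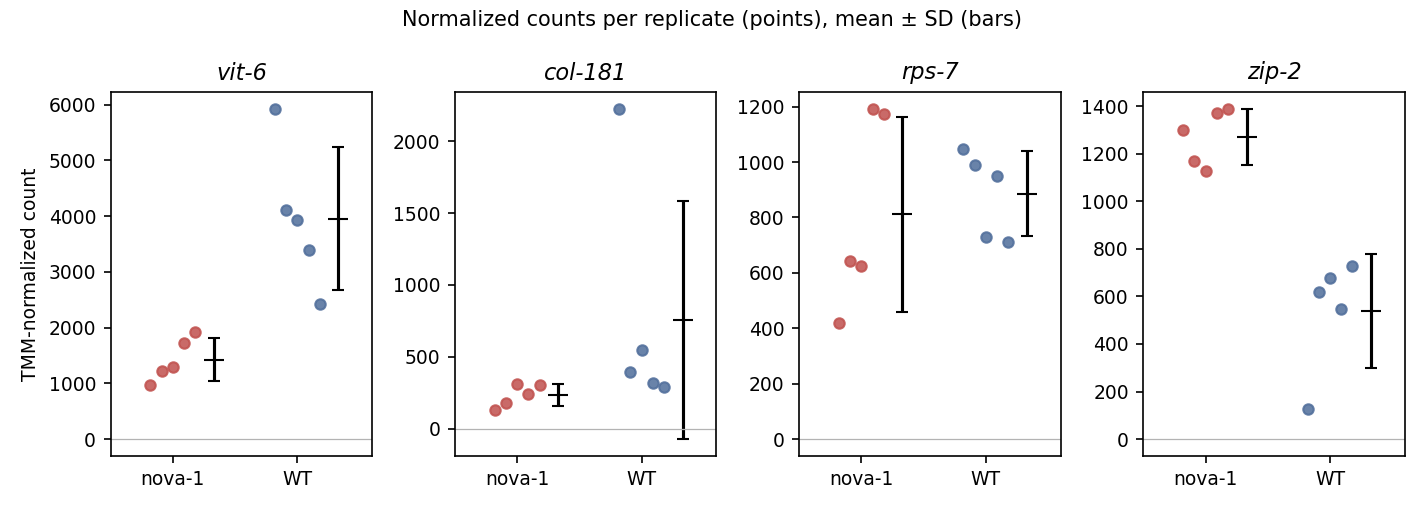
TMM-normalized count of each junction (vertical axis, linear, a scale of its own in each panel), 1 panel per host gene, *nova-1* mutants left of wild-type (WT), with points for replicates in order of their number and a black bar for the mean ± SD. The genotypes separate for *vit-6* and *zip-2* and overlap for *col-181* and *rps-7*, and wild-type replicate 1 is the highest point for *vit-6* and *col-181* and the lowest for *zip-2*.

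The yolk protein junction, *vit-6*, had normalized counts of 975, 1217, 1286, 1728 and 1923 in *nova-1* replicates 1 to 5, against 5928, 4105, 3933, 3389 and 2424 in wild-type replicates 1 to 5. All wild-type samples were above all mutant samples, and the gap between the nearest samples was that from 1923 to 2424. The raw counts behind them were 1192 to 1761 in *nova-1* mutants and 2338 to 6604 in wild-type. The mean was 1426 ± 389 in *nova-1* mutants and 3956 ± 1283 in wild-type (SD, n = 5 each). *vit-6* was downregulated in the mutants by edgeR, with a log2FC of -1.47 (SE 0.38, adjusted *P* = 0.00483), a level 0.36 times that of wild-type. Its 95% interval ran from -2.22 to -0.72. An exact permutation test over the samples (two-sided, 5 against 5) gave *P* = 0.00794, the lowest value this design can reach, and 0.032 after adjustment over the 141 loci. Without wild-type replicate 1 the log2FC was -1.26 (edgeR adjusted *P* = 6.07e-05). With the replicate number as a block the value was -1.46 and the edgeR adjusted *P* was 0.069, so the adjusted call was lost. In whole-animal RNA, fewer cells that make the counted RNA and less of it per cell cannot be told apart. Whether the counts at this junction, which did not join annotated exon ends, come from a circRNA was not tested.

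The share of *vit-6* in the column total was 12.6%, 14.3%, 15.4%, 18.6% and 19.6% in *nova-1* replicates 1 to 5, against 44%, 40.1%, 39.3%, 35.7% and 28.9% in wild-type replicates 1 to 5. The mean share was 16.1% ± 2.93 in *nova-1* mutants and 37.6% ± 5.69 in wild-type (SD, n = 5 each). The mutant replicates thus spread less in percentage points than the wild-type ones, but not relative to their mean share. Per 1000000 sequenced reads, a scale on which the other circRNAs do not enter, *vit-6* had 14.2 ± 3.3 counts in *nova-1* mutants and 41.2 ± 16.6 in wild-type (SD, n = 5 each; exact permutation test, two-sided, *P* = 0.00794). The ranges of 10.2 to 18.3 in *nova-1* mutants and 24.6 to 66.5 in wild-type were apart on that scale as well.

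The collagen junction, *col-181*, had normalized counts of 133, 176, 310, 238 and 305 in *nova-1* replicates 1 to 5, against 2227, 397, 549, 317 and 289 in wild-type replicates 1 to 5. Wild-type replicate 1 was far above every other sample, and the lowest wild-type value of 289 fell below the mutant values of 310 and 305. The mean was 232 ± 78.1 in *nova-1* mutants and 756 ± 829 in wild-type (SD, n = 5 each), or 388 ± 116 in the 4 wild-type samples without replicate 1. By edgeR the log2FC was -1.71 (SE 0.43, adjusted *P* = 0.00406, 95% interval -2.55 to -0.86). Without wild-type replicate 1 it was -0.72 (SE 0.21, adjusted *P* = 0.0038), so the direction and the call did not need that library but the size did. By the mutant mean *col-181* ranked only 8th, so its place among the 4 came through wild-type. That choice itself favours a lower mutant level, so the call is given as description. The exact permutation test over the 5 against 5 samples gave *P* = 0.0317 and 0.0973 after adjustment over all loci.

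In shares, *col-181* took 1.72%, 2.07%, 3.7%, 2.56% and 3.11% of the counts in *nova-1* replicates 1 to 5, against 16.5%, 3.88%, 5.48%, 3.34% and 3.45% in wild-type replicates 1 to 5. The mean share was 2.63% ± 0.795 in *nova-1* mutants (SD, n = 5) and 4.04% ± 0.99 in wild-type without replicate 1 (n = 4). Wild-type replicate 1 alone supplied 2481 of the 5088 *col-181* counts in the table.

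The ribosomal protein junction, *rps-7*, had normalized counts of 419, 643, 626, 1193 and 1175 in *nova-1* replicates 1 to 5, against 1048, 991, 729, 950 and 713 in wild-type replicates 1 to 5. The mutant samples lay on both sides of the wild-type range, with replicates 4 and 5 above it and replicates 1 to 3 below it. The means were 811 ± 352 in *nova-1* mutants and 886 ± 155 in wild-type (SD, n = 5 each). The log2FC was -0.13 (SE 0.32, edgeR adjusted *P* = 0.835), and its 95% interval of -0.76 to 0.50 corresponds to 0.59 to 1.42 times the wild-type level. Changes of that range are compatible with these replicates. The exact permutation test (two-sided, 5 against 5) gave *P* = 0.706. Scaled by column totals in place of TMM, the log2FC was 0.07, so no direction is given for *rps-7*.

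Its share was 5.43%, 7.56%, 7.48%, 12.8% and 12% in *nova-1* replicates 1 to 5 and 7.78%, 9.68%, 7.28%, 10% and 8.5% in wild-type replicates 1 to 5. In the mutants, *rps-7* had the widest relative spread of the 4 loci. The coefficient of variation (CV) of its normalized counts was 43.3% in *nova-1* mutants and 17.5% in wild-type, where counting alone would give 3.5% and 3.42%. Each of the 7 other loci with a mean normalized count of at least 100 had a lower CV in *nova-1* mutants, from 12.6% to 30.4% with a median of 19.5%. Some loci with lower mean counts had a higher CV in *nova-1* mutants than *rps-7*, such as *Y65B4A.6* with 53%. The difference in spread was not tested.

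The transcription factor junction, *zip-2*, had normalized counts of 1300, 1168, 1127, 1373 and 1388 in *nova-1* replicates 1 to 5, against 127, 618, 676, 547 and 728 in wild-type replicates 1 to 5. All mutant samples were above all wild-type samples, and wild-type replicate 1 was the lowest of the 10. The mean was 1271 ± 119 in *nova-1* mutants and 539 ± 240 in wild-type (SD, n = 5 each), or 642 ± 77.5 without wild-type replicate 1 (n = 4). *zip-2* was upregulated in the mutants by edgeR, with a log2FC of 1.24 (SE 0.36, adjusted *P* = 0.0111), or 2.36 times the wild-type level. Its 95% interval ran from 0.54 to 1.94. Without wild-type replicate 1 the log2FC was 0.99 (SE 0.25, adjusted *P* = 0.000565). The exact permutation test of the 5 against 5 samples gave *P* = 0.00794, or 0.032 after adjustment over all loci.

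As shares, *zip-2* had 16.8%, 13.7%, 13.5%, 14.8% and 14.2% of the counts in *nova-1* replicates 1 to 5, against 0.946%, 6.04%, 6.75%, 5.77% and 8.67% in wild-type replicates 1 to 5. Of the 4 loci it varied least among the mutants, with a CV of 9.34% against 27.3% for *vit-6*, 33.7% for *col-181* and 43.3% for *rps-7*. In wild-type its CV was 44.5% with replicate 1 and 12.1% without it. Per 1000000 sequenced reads, *zip-2* had 12.7 ± 0.896 counts in *nova-1* mutants and 5.46 ± 2.49 in wild-type (SD, n = 5 each; exact permutation test, *P* = 0.00794), with ranges of 11.3 to 13.6 in *nova-1* mutants and 1.43 to 7.4 in wild-type.

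No other vitellogenin, cuticle collagen or ribosomal protein gene of the lists used had a junction in the table, so *vit-6*, *col-181* and *rps-7* were each the only member of their family measured. For the bZIP factors there were 8 junctions from 6 host genes. Of these, 2 were called higher in *nova-1* mutants, none lower, and 6 did not meet the criterion, so that 2 of 8 stand beside the 21.3% of all loci called higher. This is near the background and is not read as a result about bZIP factors. The median log2FC was 0.25 over the 8 and 0.19 over the 7 without *zip-2*, beside -0.10 over all 141 loci. The other called junction was that of *zip-12* between 12329344 and 12329692. It had normalized counts of 51.5, 31.9, 38.4, 34.4 and 31.7 in *nova-1* replicates 1 to 5, against 19.7, 30.9, 11.7, 16.7 and 29 in wild-type replicates 1 to 5. The genotypes did not overlap, though their nearest values, 31.7 and 30.9, were close (log2FC 0.79, SE 0.30, edgeR adjusted *P* = 0.0478). A second *zip-12* junction, which starts at the same position and ends at 12330752, had a log2FC of 0.19 (edgeR adjusted *P* = 0.58).

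The remaining bZIP junctions, which did not meet the criterion, were from *crh-1*, *crh-2*, *zip-3* and *zip-9*. The pair of junctions in *crh-1*, the worm homologue of the cAMP response element-binding protein CREB, had log2FC values of 0.30 and -0.51. The values were 0.61 for *crh-2*, -0.30 for *zip-3* and -0.38 for *zip-9*.

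Ratios between the loci within a sample do not depend on how libraries are scaled. All 6 pairs were compared, after the data had been seen, by exact permutation tests (two-sided, 5 against 5, unadjusted). The ratio of *vit-6* to *zip-2* was 0.75 to 1.39 in *nova-1* mutants and 3.33 to 46.5 in wild-type, a difference in mean log2 ratio of -2.91 (exact *P* = 0.00794). The value of 46.5 was that of wild-type replicate 1, and without that library the highest wild-type ratio was 6.64 and the difference was -2.28. In the mutants, then, a yolk protein junction and a transcription factor junction were counted at similar levels, while in each wild-type sample *vit-6* was the more frequent by more than 3-fold.

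Relative to *rps-7*, *vit-6* was lower and *zip-2* higher in *nova-1* mutants. The *vit-6* to *rps-7* ratio was 1.45 to 2.33 in *nova-1* mutants and 3.4 to 5.65 in wild-type (log2 difference -1.23, exact permutation *P* = 0.00794, and -1.14 without wild-type replicate 1). The *rps-7* to *zip-2* ratio was 0.322 to 0.869 in *nova-1* mutants and 0.98 to 8.23 in wild-type (-1.68, exact permutation *P* = 0.00794, and -1.15 without that replicate). For *col-181* to *zip-2* the ratio was 0.102 to 0.275 in *nova-1* mutants and 0.397 to 17.5 in wild-type (-2.74, exact permutation *P* = 0.00794, and -1.76 without it). In these 4 pairs the genotypes did not overlap. The ratios are built from 4 loci, so they are not independent and repeat in part the changes given for each locus. No share over other pairs of loci is given beside this count, and nothing is read from it. The place of *col-181* among the 4 came through wild-type, which favours a lower ratio of *col-181* to another locus in the mutants. Its ratios are thus given as description.

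The other 2 ratios overlapped between genotypes. The *vit-6* to *col-181* ratio was 4.15 to 7.36 in *nova-1* mutants and 2.66 to 10.7 in wild-type (log2 difference -0.17, exact permutation *P* = 0.675). Its lowest wild-type value was that of replicate 1, and the other 4 lay between 7.17 and 10.7. The *col-181* to *rps-7* ratio was 0.199 to 0.494 in *nova-1* mutants and 0.334 to 2.12 in wild-type (-1.06, exact permutation *P* = 0.0556, and -0.61 without wild-type replicate 1).

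**Figure D3:**
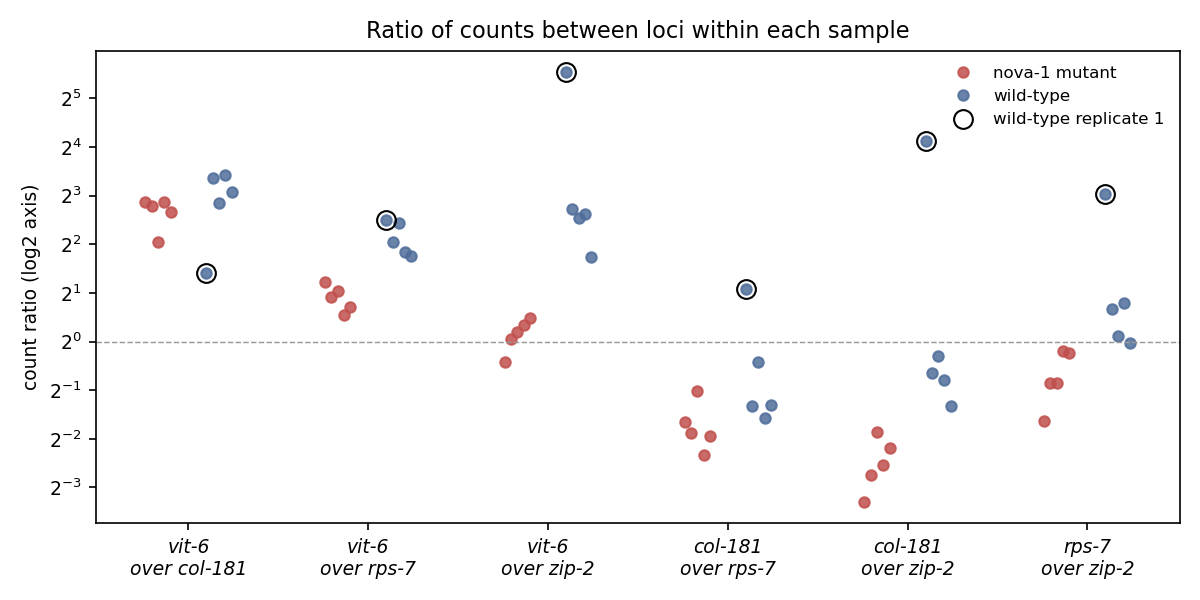
Ratio of raw counts between each pair of the 4 junctions within a sample (vertical axis, log2 scale), *nova-1* mutants left of wild-type, 1 point per sample, with a ring around wild-type replicate 1. The genotypes separate in 4 of the 6 pairs, while *vit-6* to *col-181* and *col-181* to *rps-7* overlap, and wild-type replicate 1 is the highest point in every pair that holds *zip-2*. The 6 ratios are built from 4 loci and are not independent.

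Co-variation was measured on log2 normalized counts after the mean of each genotype had been subtracted, so that the genotype change does not enter. The points share their libraries, and orders were permuted within each genotype. *vit-6* and *rps-7* deviated together over the 10 samples, with Pearson's r = 0.79 (exact permutation *P* = 0.00299, adjusted over the 6 pairs 0.0179) and Spearman's rho = 0.85 (*P* = 0.00931, adjusted 0.0558, exact permutation). The values showed this most plainly in the mutants, where replicates 4 and 5 were the highest and replicate 1 the lowest at both loci. Without the 2 samples farthest from the *vit-6* median, wild-type replicate 1 and *nova-1* replicate 1, r was 0.76 (exact permutation *P* = 0.0729), which no longer passed the test. Without wild-type replicate 1 alone it was 0.85 (exact permutation, unadjusted *P* = 0.00694).

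*vit-6* and *col-181* had r = 0.81 (exact permutation *P* = 0.00625, adjusted 0.0188) and rho = 0.80 (*P* = 0.0192, adjusted 0.0575, exact permutation). Without the same 2 samples r was 0.62 (exact permutation *P* = 0.132), which no longer passed the test. Without wild-type replicate 1 alone it was 0.76 (exact permutation *P* = 0.0382, adjusted 0.115). On shares of the column total neither relation passed the test, with r = 0.63 for *vit-6* and *rps-7* and r = 0.61 for *vit-6* and *col-181* (exact permutation, adjusted *P* = 0.172 for each). On counts per 1000000 sequenced reads both did, with r = 0.79 and r = 0.87 (exact permutation, adjusted *P* = 0.00958 for each). Within genotypes, the r of *vit-6* and *rps-7* on shares was 0.97 in *nova-1* mutants but -0.23 in wild-type (n = 5 each). On TMM-normalized counts these values were 0.98 and 0.71.

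On TMM-normalized counts, the relations of *zip-2* with *vit-6* and *col-181* rested on wild-type replicate 1. For *col-181* and *zip-2*, r was -0.85 (exact permutation *P* = 0.111, adjusted 0.166) with rho = -0.35, and without that library r was 0.05. For *vit-6* and *zip-2*, r was -0.56 (exact permutation *P* = 0.239, adjusted 0.287) with rho = -0.05, and without that library r was 0.08. On shares of the column total, *col-181* and *zip-2* had r = -0.88 (exact permutation *P* = 0.0374, adjusted 0.172), and -0.33 without that library. There *vit-6* and *zip-2* had r = -0.48 (exact permutation, adjusted *P* = 0.313), and -0.58 without that library. On TMM-normalized counts, *rps-7* and *zip-2* had r = -0.17 (exact permutation *P* = 0.52). *col-181* and *rps-7* had r = 0.42 on the same scale (exact permutation *P* = 0.0947, adjusted 0.166). For scale, the 3240 pairs among 81 other loci with a mean of at least 20 and no zero had a median r of 0.00, with the central 90% between -0.64 and 0.68. All these loci had lower mean counts than the 4. Counting error is larger at low counts and weakens r, so this is not a like comparison.

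**Figure D4:**
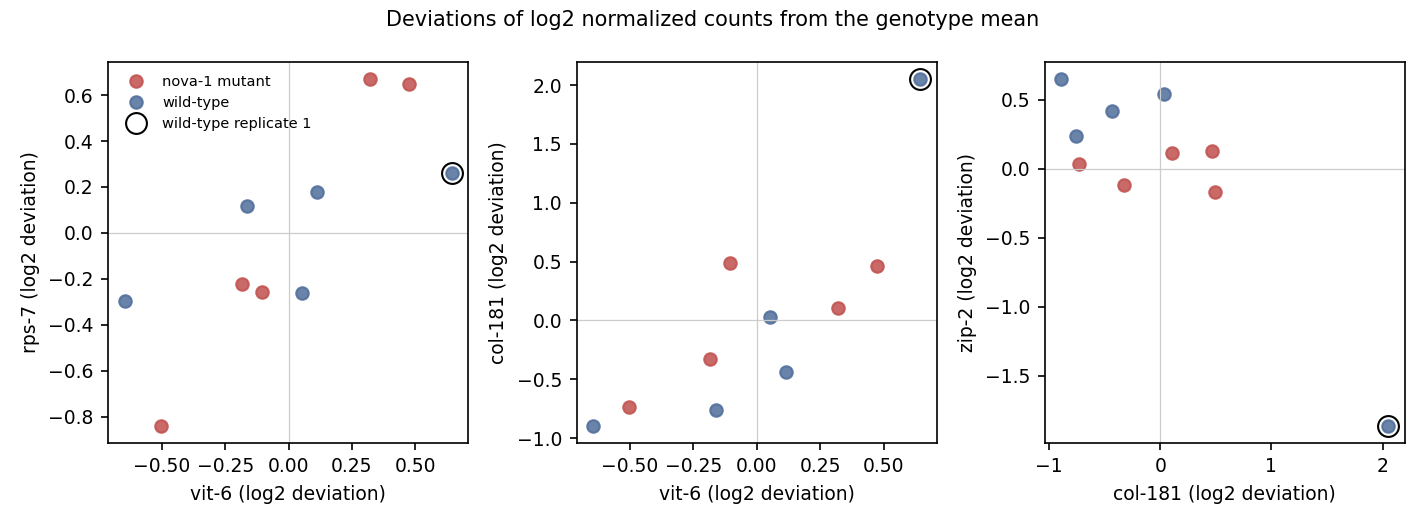
Deviation of log2 normalized count from the mean of its own genotype at 1 locus (vertical axis) against that at another (horizontal axis) for 3 of the 6 pairs, with red points for *nova-1* mutants, blue points for wild-type and a ring around wild-type replicate 1. The panels of *vit-6* with *rps-7* (r = 0.79) and with *col-181* (r = 0.81) slope upward, and in the panel of *col-181* with *zip-2* the ringed point lies far from the other 9.

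Among the 81 other loci, those whose deviations most resembled *vit-6* were *sec-23*, which encodes a COPII coat protein of vesicles leaving the endoplasmic reticulum, with r = 0.70, and *Y65B4A.6* with r = 0.66. The 2 loci most like *rps-7* were *mdt-20*, a Mediator subunit gene, with r = 0.67, and *sec-23* with r = 0.62. Those most like *col-181* were *Y65B4A.6* with r = 0.74 and *tlp-1* with r = 0.71. Without wild-type replicate 1 these values were 0.52 and 0.43 for *vit-6*, 0.68 and 0.65 for *rps-7*, and 0.36 and 0.08 for *col-181*. These correlations are over 10 samples that share a library at each point, were picked as the highest and were not tested.

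For *zip-2*, an *afd-1* junction (2173754 to 2174984) had r = 0.97 and *gcn-1*, whose protein acts with the GCN2 kinase in sensing amino acid shortage, had r = 0.93. Without wild-type replicate 1 they were 0.35 and 0.24. The *afd-1* junction had 49.1 to 67.1 normalized counts in *nova-1* mutants and 14.4 to 73.4 in wild-type, and *gcn-1* had 80.3 to 106 in *nova-1* mutants and 50.3 to 116 in wild-type. In both, the lowest wild-type value was that of replicate 1, as for *zip-2*.

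Whether the 4 loci bore on the calls at the other 137 depended on how libraries were scaled. With the 4 rows in the table and TMM, 54 of the 137 others met the criterion, 29 higher and 25 lower in *nova-1* mutants. With the 4 rows removed before normalization, 54 did, 29 higher and 25 lower, and all 54 were shared. With column totals in place of TMM, the split depended on the 4 rows. When they were kept, 48 loci were called, 70.8% of them higher in *nova-1* mutants and with a median log2FC over the 137 of 0.15. Without them 55 were called, 29.1% higher, with a median of -0.35. The 2 sets shared 30 loci, 62.5% of one and 54.5% of the other. TMM factors were 0.962 to 1.22 in *nova-1* mutants and 0.699 to 1.12 in wild-type, the lowest being wild-type replicate 1. The median log2FC of all 141 loci was 0.14 under column totals and -0.10 under TMM. Relative to that median, the log2FC under column totals and under TMM was -1.36 and -1.38 for *vit-6*, -1.45 and -1.61 for *col-181*, -0.07 and -0.03 for *rps-7*, and 1.24 and 1.33 for *zip-2*.

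**Figure D5:**
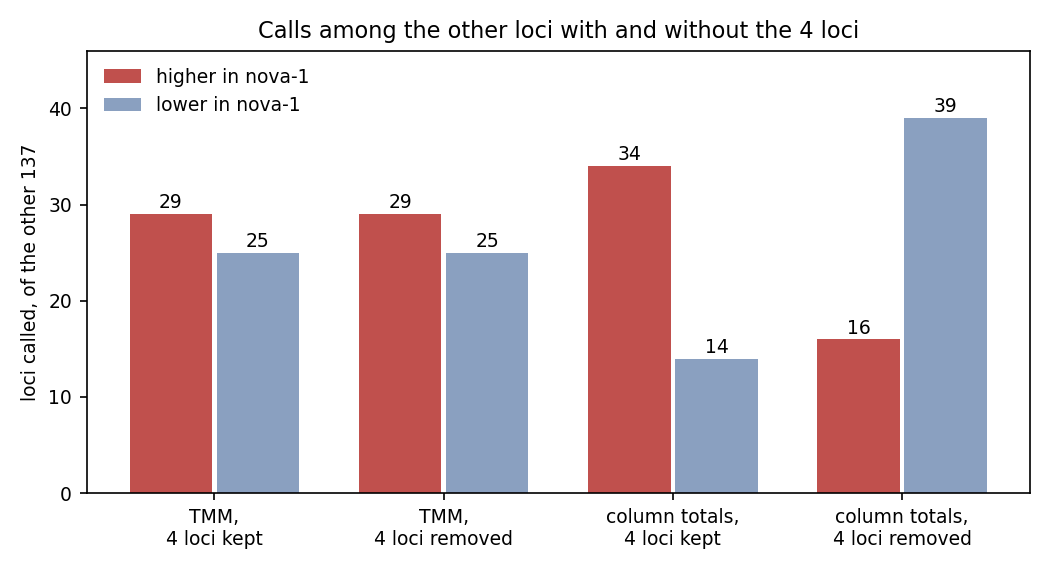
Number of the other 137 loci that met the criterion (vertical axis), split into higher and lower in *nova-1* mutants, under TMM and under column totals, with the *vit-6*, *col-181*, *rps-7* and *zip-2* rows kept in the table or removed. The TMM bars are alike with 29 higher and 25 lower, while under column totals the split is 34 higher and 14 lower with the 4 rows and 16 higher and 39 lower without them.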

How the data were processed

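Day-3 whole-animal total RNA libraries were sequenced for 5 *nova-1* and 5 wild-type replicates, which the study's methods call independent. The authors deposited raw counts per back-splice junction. They aligned reads to ce11 with HISAT2 2.2.1, realigned the unmapped ones with BWA 0.7.18, predicted loci with CIRI2 2.0.6, dropped loci with few junction reads, mapped reads to 200-nt scaffolds of each junction with Bowtie2 2.5.4, took out duplicates with Picard and counted with featureCounts 2.0.1. The study names the reference as WBcel235/ce11, yet the deposited coordinates were offset from the WBcel235 annotation by amounts that varied along the genome. The reason was not tested. Reads shared by nearly identical junctions, such as the pair in *crh-1*, could be split between them, and junctions with few counts carry wide errors. Columns were matched to samples by genotype word and replicate number, with 0 left over.

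Here, edgeR 4.0.16 (R 4.3.3; glmQLFit, TMM, no filter or covariate) was fitted to all 141 loci, with Benjamini-Hochberg adjustment over them, and the script was tested on simulated data. Standard errors are the absolute log2FC divided by the square root of F. Exact permutation tests, Wilson intervals and correlations used Python 3.11.15 and scipy 1.17.1. Host genes were linked for 138 of the 141 loci, of which 112 had identical coordinates and 26 shifted ones.

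The members and gene lists were chosen with earlier results of these data known. Named besides the 4 loci are all loci of the 4 family lists (vitellogenins, cuticle collagens, ribosomal proteins and bZIP factors), the next 3 loci by mean normalized count, and the 2 loci most correlated with each. Loci next to a junction are named for their offsets only. Alternatives were RLE factors, column totals, TMM from the other loci, sequenced reads as library size (from the study's read statistics), DESeq2 1.42.0, filterByExpr, robust dispersion, a replicate block and leaving out each replicate. Leaving wild-type replicate 1 out of the means over all samples and of the correlations with other loci was added after the data were seen. Linear splicing and junction sequences were not analysed here.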

Additional observations from a re-analysis of the deposited data

Results flagged for a closer look

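A value was flagged when its gap to the nearest value exceeded 0.71 of the range of its group (Dixon rule). In 16 groups of 5 samples (4 loci, 2 genotypes, normalized counts and shares), 2 values were flagged, and both were *col-181* in wild-type replicate 1. Its normalized count there was 2227, while the other wild-type replicates had 289 to 549. Its share of the column total was 16.5%, while the others had 3.34% to 5.48%. Both values describe the same 2481 counts, and the rule used flags about 1 in 20 groups by chance. In the same library *zip-2* was not flagged, although its normalized count was 127 against 547 to 728 in the other wild-type replicates.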

How the results depend on the processing

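Of 274 recomputed values, 251 kept their call by the criterion or moved by less than the tolerance for values without a test (1 SD between replicates, or 1.5 times for counts). Some of these crossed other lines: the *rps-7* ratio of mean shares, 1.05, was 0.876 by sequenced reads and 0.938 or 0.962 without *nova-1* replicate 4 or 5. The 251 also hold the r of *col-181* and *rps-7*, which had no adjusted *P* under 0.05 by exact permutation in any setting. It went from 0.42 to 0.00 on shares and to 0.12 without the 2 samples farthest from the *col-181* median. The *rps-7* log2FC reversed to 0.07 under column totals. By sequenced reads, the ratio of *nova-1* to wild-type mean was 0.344 for *vit-6* and 0.582 for the 4 loci together. On shares, r was 0.61 for *vit-6* and *col-181*, 0.63 for *vit-6* and *rps-7*, and 0.07 for *rps-7* and *zip-2*. Without the 2 samples farthest from the median of the first-named locus it was 0.62, 0.76, 0.17 and 0.15 for *vit-6* with *col-181*, *vit-6* with *rps-7*, *vit-6* with *zip-2* and *col-181* with *zip-2*. The cause was not tested.

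Leaving out each replicate gave a log2FC of -1.61 to -1.26 for *vit-6*, -2.01 to -0.72 for *col-181*, -0.31 to -0.01 for *rps-7* and 0.99 to 1.37 for *zip-2*. The r ranged from 0.76 to 0.85 for *vit-6* and *col-181*, from 0.73 to 0.85 for *vit-6* and *rps-7*, and from -0.66 to 0.08 for *vit-6* and *zip-2*. It ranged from 0.30 to 0.51 for *col-181* and *rps-7*, from -0.89 to 0.05 for *col-181* and *zip-2*, and from -0.25 to 0.16 for *rps-7* and *zip-2*. Both *vit-6* relations lost the adjusted threshold without *nova-1* replicate 1 (exact permutation, adjusted *P* = 0.0927 for each), and that with *col-181* also without wild-type replicate 1 (0.115) or 4 (0.0594).

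Same-numbered samples did not deviate together (r from -0.23 to -0.01 over 85 loci), so the numbers were not taken as pairs. With the replicate block, edgeR log2FC was -1.46 for *vit-6* (adjusted *P* = 0.069), -1.17 for *col-181*, -0.22 for *rps-7* and 1.40 for *zip-2*, and 53 loci met the criterion. It changed no other call among the 4.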
